A study of Mus musculus with 18 samples.

Results

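The fibroblast growth factor (FGF) ligands described here are 8 genes, Fgf1, Fgf2, Fgf7, Fgf9, Fgf10, Fgf18, Fgf21 and Fgf23, among 55401 genes counted and 22 annotated FGF family genes. They were chosen by name with their measured levels in these same libraries known, so their levels and fold changes are given as description, with no test. RNA was sequenced from gp38+ (podoplanin-bearing) fibroblasts, the connective tissue cells of the salivary gland, sorted from Balb/c mice aged 8 to 12 weeks. In the infected groups the submandibular gland had received a replication-defective adenovirus 5 through its cannulated duct, in a model of ectopic tertiary lymphoid structures. The groups were taken 3 hours, 1 day, 2 days, 8 days and 23 days after infection, and uninfected glands served as hour 0, with 3 libraries in each of the 6 groups. Each library carries its own subject label. No group was cannulated without virus, so virus, cannulation and time cannot be told apart.

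FGF ligands bind receptor tyrosine kinases at the cell surface, with heparan sulfate chains as cofactor for the paracrine ligands and klotho proteins as cofactor for the endocrine ligands. In salivary glands Fgf10 and Fgf7 are mesenchymal ligands of the epithelial splice form of Fgfr2, and Fgf10 is required for the gland to form. Fgf1, Fgf2, Fgf9 and Fgf18 are paracrine ligands with wider receptor use, whereas Fgf21, known as a liver and stress hormone, and Fgf23, known as a bone-derived phosphate hormone, are endocrine. Signalling switches on its own inhibitors, among them the Sprouty and Spred genes and Dusp6.

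Total counts per library ran from 4398234 to 15234431. The groups fall into 2 sets of 9 libraries. Counts on 1502 olfactory, vomeronasal and taste receptor genes, which fibroblasts are not known to express, averaged 1.34, 0.772 and 3.06 per kb of exon per 10000000 counts at hour 0, day 1 and day 2. The same rate was 0.0465, 0.0225 and 0.0217 at hour 3, day 8 and day 23. The labels do not call these sets batches. Day 1 and day 2 against hour 0, day 8 against hour 3 and day 23 against day 8 compare groups within a set. For hour 3, day 8 or day 23 against hour 0, set and time cannot be told apart. All 9 fibroblast markers, Pdpn and Pdgfra among them, were detected in every group. So were all 10 epithelial, 7 mural, 6 glial and 7 macrophage markers, and detection alone therefore does not check the label of the sorted cells. Marker sums are given below.

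Promoter sequence is shown for 3 ligands that were higher at hour 3 than at hour 0 or day 8, Fgf18, Fgf21 and Fgf23, and for Fgf10, whose level was lower there than at hour 0. Each is the 250 bases before the RefSeq start on GRCm38.p6, written 5′ to 3′ on the strand of the gene, with motif matches in capitals.
Fgf23: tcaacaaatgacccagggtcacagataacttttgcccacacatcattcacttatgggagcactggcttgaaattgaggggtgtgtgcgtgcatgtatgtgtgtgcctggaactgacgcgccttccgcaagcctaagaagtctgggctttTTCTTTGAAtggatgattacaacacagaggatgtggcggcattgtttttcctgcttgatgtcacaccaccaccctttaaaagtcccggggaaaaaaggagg
Fgf21: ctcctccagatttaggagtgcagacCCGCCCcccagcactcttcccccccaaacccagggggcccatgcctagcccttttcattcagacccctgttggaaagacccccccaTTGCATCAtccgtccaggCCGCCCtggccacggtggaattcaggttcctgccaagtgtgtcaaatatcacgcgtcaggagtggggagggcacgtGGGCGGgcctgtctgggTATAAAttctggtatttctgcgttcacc
Fgf18: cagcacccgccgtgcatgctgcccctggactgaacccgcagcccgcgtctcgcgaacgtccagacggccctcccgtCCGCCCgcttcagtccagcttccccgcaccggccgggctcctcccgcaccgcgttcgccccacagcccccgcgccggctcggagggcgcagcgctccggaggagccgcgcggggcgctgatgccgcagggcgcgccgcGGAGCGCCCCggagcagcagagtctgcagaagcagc
Fgf10: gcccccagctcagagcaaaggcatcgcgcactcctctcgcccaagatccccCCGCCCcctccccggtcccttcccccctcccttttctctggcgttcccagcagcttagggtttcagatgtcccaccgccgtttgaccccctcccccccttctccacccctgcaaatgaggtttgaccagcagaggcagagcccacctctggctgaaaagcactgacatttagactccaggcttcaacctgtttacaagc
The windows lie at chr6:127072652-127072901 on the plus strand for Fgf23, chr7:45615491-45615740 on the minus strand for Fgf21, chr11:33147401-33147650 on the minus strand for Fgf18 and chr13:118714449-118714698 on the plus strand for Fgf10. Both strands were searched for AP-1 (TGANTCA), CRE (TGACGTCA), GAS (TTCNNNGAA), the TATA box element (with the letters TATAAA), the GC box (GGGCGG), CHOP-ATF (TGATGNAA) and NF-kB motifs. The capitals in Fgf23 are a GAS match, the element bound by STAT factors, which 7.02% of 32851 promoter windows of this length hold. Those in Fgf21 are GC boxes (in 32.7% of windows), a CHOP-ATF match of the integrated stress response (3.45%) and a TATA box (12.4%). In Fgf18 they are a GC box and an NF-kB match (7.25%), and in Fgf10 a GC box. No AP-1 match (6.75% of windows) or CRE match (1.55%) lay in these 4 windows. The window of Fgf2, which was also higher at hour 3, held a GC box and no other motif searched. No motif searched lay in the windows of Fgf7 and Fgf9. Windows were examined for 7 of the 8 ligands, and the promoter of Fgf1 was not examined. A match is a description of the letters, not evidence of binding.

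Fgf2, a ligand without a signal peptide that is stored on matrix heparan sulfate, stood far higher at hour 3 than in any other group. At hour 0 its 3 libraries held 30.2, 28.9 and 28.5 CPM (counts relative to library size, scaled by the TMM method), and at hour 3 they held 765, 616 and 587 CPM. Day 1 had 26.5, 28.6 and 40.1 CPM and day 2 had 44.5, 53.2 and 65.7 CPM. The libraries of day 8 held 27.3, 17.4 and 30.5 CPM and those of day 23 held 49.0, 41.7 and 32.4 CPM. The lowest hour 3 library was thus several times the highest library of any other time, while day 1, hour 0 and day 8 overlapped on this scale. In the comparison of hour 3 with hour 0, in which 60% of 27525 genes tested passed an adjusted p of 0.05 (edgeR, Benjamini-Hochberg), the fitted log2 fold change of Fgf2 was 4.49 ± 0.232 (SE). Scaling by library totals alone gave 3.31, and this scaling moved the median of all genes by -1.15 in that comparison. Within 1 set, day 8 against hour 3 gave -4.71 ± 0.234 (30.7% of genes tested passed), or -3.93 with library totals, which moved the median of all genes by 0.76 in that comparison. Day 2 against hour 0 gave 0.90 ± 0.208, with no overlap between the groups (14.8% of genes tested passed). Day 23 against day 8 gave 0.72 ± 0.210 (5.32% of genes tested passed). In bulk libraries of sorted cells, fewer cells of a type and less RNA per cell cannot be told apart, for this gene and for those below.

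The Fgf2 gene lies at chr3:37348346-37410108 on the plus strand (GRCm38, which is mm10), and 640 of its 6782 exon bases overlap Nudt6 on the opposite strand. How reads in overlaps were assigned is not given in the sources used here. Nudt6 held 607 counts over the 18 libraries and Fgf2 20403.

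Fgf23, the phosphate hormone, was near its floor in uninfected cells and abundant from hour 3 to day 2. Its counts were 6, 0 and 9 at hour 0 and 659, 528 and 579 at hour 3. Day 1 had 358, 127 and 383 counts and day 2 had 289, 222 and 120. At day 8 it had 13, 3 and 6 counts, and at day 23 it had 15, 4 and 0. The libraries of hour 3, day 1 and day 2 all lay above every library of hour 0, day 8 and day 23, with no overlap. On the CPM scale the mean of 3 libraries, with its SD, was 0.442 ± 0.391 at hour 0 and 76.7 ± 8.36 at hour 3. It was 22.8 ± 10.2 for day 1 and 27.5 ± 15.5 for day 2, then 0.597 ± 0.435 for day 8 and 1.01 ± 1.45 for day 23. Day 1 and day 2 overlapped, as did hour 0, day 8 and day 23. With library totals the mean was 40.5 at hour 3, 29.0 for day 1 and 42.1 for day 2, so that hour 3 was not highest on that scale.

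Because day 1, day 2 and hour 0 share a set, the Fgf23 difference was also seen within it. The fitted log2 fold change was 5.56 ± 0.627 at day 1 against hour 0 (22.5% of genes tested passed) and 5.82 ± 0.630 at day 2 against hour 0. With library totals these were 5.67 and 6.20. For hour 3 against hour 0 it was 7.30 ± 0.638, or 6.14 with library totals, and for day 8 against hour 3 it was -6.98 ± 0.612, or -6.19 with library totals. The expected background, from the receptor-gene rate and exon length, was 3.99 counts over the 3 day 1 libraries against 868 observed, and 6.19 counts over the 3 hour 0 libraries against 15 observed. The gene lies at chr6:127072902-127081408 on the plus strand and has 1814 exon bases.

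Fgf21, a hormone of fasting and cell stress that signals through Klb, was counted at low depth and mainly at hour 3. It had 3, 0 and 2 counts at hour 0 and 17, 29 and 25 counts at hour 3. Day 1 had 12, 0 and 0 counts, all of them in replicate 13, and day 2 had 0, 9 and 5. No count fell in any of the 6 libraries of day 8 and day 23. Each hour 3 library thus exceeded every other library in counts and in TMM-scaled CPM. With library totals, day 1 replicate 13 (1.22) and day 2 replicate 17 (1.68) were above hour 3 replicate 4 (1.14). The ratio of TMM-scaled counts, 71 at hour 3 against 5 at hour 0, was 19.3 (exact 95% interval 7.88 to 61.2, counting error only). On the same scale day 8 was at least 38.2-fold lower than hour 3, with a floor of 3 counts over the group. At hour 0, day 1 and day 2 the 31 counts of Fgf21 were 3.09 times the receptor-gene background, a ratio inside the range of the FGF ligands described below as other family members. Over these 9 libraries together Fgf21 could not be told apart from those ligands. They were not shown to be background only, since Fgf16 had 44 counts at day 1 against 3.62 expected. In single libraries, the 12 Fgf21 counts of day 1 replicate 13 stood against 0.645 expected, and the 9 of day 2 replicate 17 against 1.54.

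Fgf18, a paracrine ligand known from skeleton and lung, was higher at hour 3 than at hour 0 or day 8. It stood at 8.51, 8.50 and 7.69 CPM at hour 0 and at 31.8, 37.0 and 27.9 CPM at hour 3. Day 1 had 6.28, 2.61 and 10.2 CPM and day 2 had 12.2, 9.90 and 9.28 CPM. Day 8 had 2.75, 2.11 and 4.34 CPM and day 23 had 11.6, 7.77 and 9.00 CPM. Hour 3 lay above all other groups on this scale, whereas with library totals it overlapped day 2, with means of 17.1 at hour 3 and 16.0 at day 2. Day 8 lay below hour 0 and day 23 without overlap under both scalings. The fitted log2 fold change was 1.97 ± 0.343 at hour 3 against hour 0, and 0.79 with library totals. Within the set, day 8 against hour 3 gave -3.39 ± 0.368, or -2.63 with library totals, and day 23 against day 8 gave 1.61 ± 0.364. Fgf18 was the shortest of the paracrine members, with 1187 exon bases at chr11:33117430-33147400 on the minus strand.

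**Figure D1:**
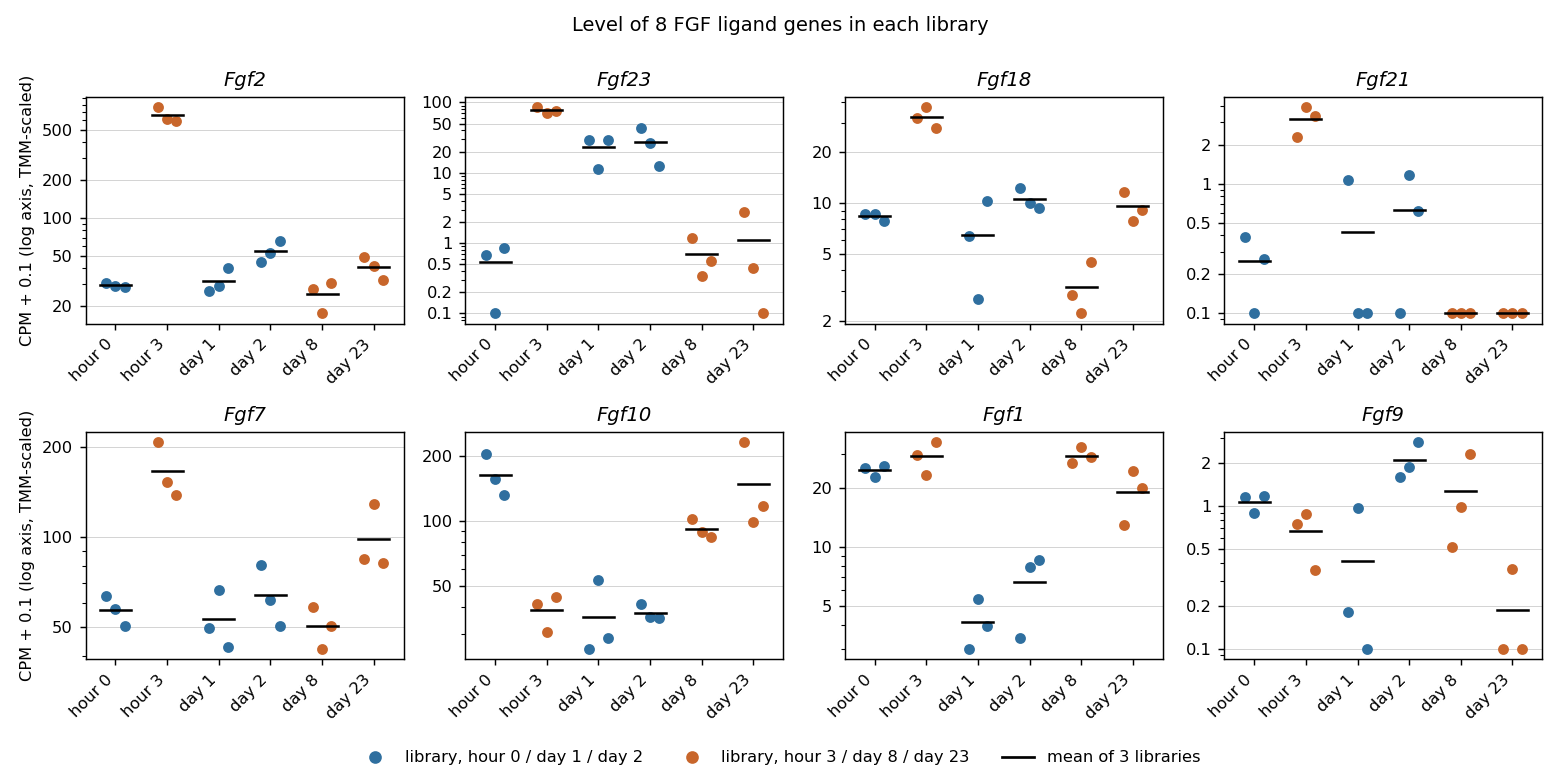
CPM (TMM-scaled, with 0.1 added, log axis with a separate range in each panel) of the 8 ligand genes in each of the 18 libraries, in time order. Points are libraries, coloured by the set they belong to, and bars are means of 3. On this scale Fgf2, Fgf23, Fgf18, Fgf21 and Fgf7 have their highest mean at hour 3, which with library totals moves to day 2 for Fgf23 and Fgf7. At hour 3 Fgf10 averages 38.9 CPM against 164 CPM at hour 0.

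The mesenchymal ligands Fgf7 and Fgf10, which share the epithelial form of Fgfr2 as receptor, moved apart. Fgf10 held 205, 156 and 132 CPM at hour 0 and 41.2, 30.7 and 44.8 CPM at hour 3. At day 1 it held 25.6, 53.3 and 28.9 CPM and at day 2 it held 41.3, 35.9 and 35.5 CPM. Day 8 had 103, 88.7 and 84.7 CPM and day 23 had 232, 98.8 and 118 CPM. Every library of hour 3, day 1 and day 2 was below every library of hour 0, day 8 and day 23, and day 23 overlapped hour 0. The separation held with library totals, where the highest of those 9 libraries was 70.1 and the lowest of the others 71.7. The fitted log2 fold change was -2.19 ± 0.268 at day 1 and -2.13 ± 0.269 at day 2, both against hour 0 of the same set. With library totals these values were -2.09 and -1.77. Across sets, hour 3 against hour 0 gave -2.08 ± 0.269, or -3.26 with library totals, and day 8 against hour 0 gave -0.83 ± 0.257 (43.9% of genes tested passed). Day 8 against hour 3 gave 1.24 ± 0.264, or 2.03 with library totals. Day 23 against hour 0 gave -0.14 ± 0.256 (34% of genes tested passed). Replicate 7 was the high library of day 23, and leaving out each library in turn moved that value between -0.60 and 0.10.

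Fgf7, keratinocyte growth factor, was lower than Fgf10 per kb of exon in uninfected cells. It held 63.3, 57.1 and 50.2 CPM at hour 0 and 207, 152 and 138 CPM at hour 3. Day 1 had 49.5, 66.3 and 42.5 CPM and day 2 had 80.4, 61.4 and 50.1 CPM. Day 8 had 58.3, 42.1 and 50.1 CPM and day 23 had 84.4, 129 and 81.7 CPM. Hour 3 was highest and day 23 next, each clear of the group below it, while hour 0, day 1, day 2 and day 8 overlapped. This order rests on the scaling: with library totals hour 3, day 2 and day 23 overlapped, with means of 87.6 at hour 3, 98 for day 2 and 85.1 for day 23. The fitted log2 fold change of 1.54 ± 0.217 at hour 3 against hour 0 shrank to 0.36 with library totals. Within the set, day 8 against hour 3 gave -1.73 ± 0.218, or -0.94 with library totals, and day 23 against day 8 gave 0.98 ± 0.216. The genes lie at chr2:126034658-126091185 for Fgf7 and chr13:118669791-118792115 for Fgf10, both on the plus strand, and Fgf10 shares 123 exon bases with the antisense gene Gm16263.

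No scaling enters the ratio of the 2 genes within a library, so it is free of that choice. Per kb of exon, the level of Fgf7 over that of Fgf10 averaged 0.499 ± 0.0537 at hour 0 and 6.17 ± 1.57 at hour 3 (± SD over 3 libraries). It averaged 2.20 ± 0.498 for day 1 and 2.39 ± 0.379 for day 2, then 0.770 ± 0.0874 for day 8 and 1.12 ± 0.678 for day 23. The lowest ratio at hour 3 was 4.36, and at day 1 it was 1.76. The highest at hour 0 was 0.540. Fgf10 thus led Fgf7 in every uninfected library, Fgf7 led in every library of hour 3, day 1 and day 2, and at day 23 the libraries fell on either side of equal levels.

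The make-up of the 8 ligands within each library changed accordingly. Fgf10 made up 50.9% of their summed CPM per kb at hour 0 and 3.64% at hour 3, as group means. Its share was 16.5% for day 1 and 13.4% for day 2, then 42.1% for day 8 and 39.2% for day 23. Fgf2 made up 6.26% at hour 0 and 41.2% at hour 3, with all hour 3 libraries between 40.6% and 42.2%. The share of Fgf23 was 0.358% at hour 0 and 18.1% at hour 3, then 26.1% for day 1, 23.2% for day 2 and 0.664% for day 8. The share of Fgf7 lay between 21.6% and 38.3% as group means. In single libraries it ran from 19.9% (hour 3 replicate 6) to 50.5% (day 23 replicate 8). The summed level itself averaged 69.6 ± 10.5 CPM per kb at hour 0 and 234 ± 29.1 at hour 3. It averaged 47.8 ± 2.35 for day 1 and 62.0 ± 12.7 for day 2, then 47.7 ± 4.73 for day 8 and 80.9 ± 15.3 for day 23. With library totals the hour 3 sum was 124 ± 13.0 against 83.3 ± 14.7 at hour 0.

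**Figure D2:**
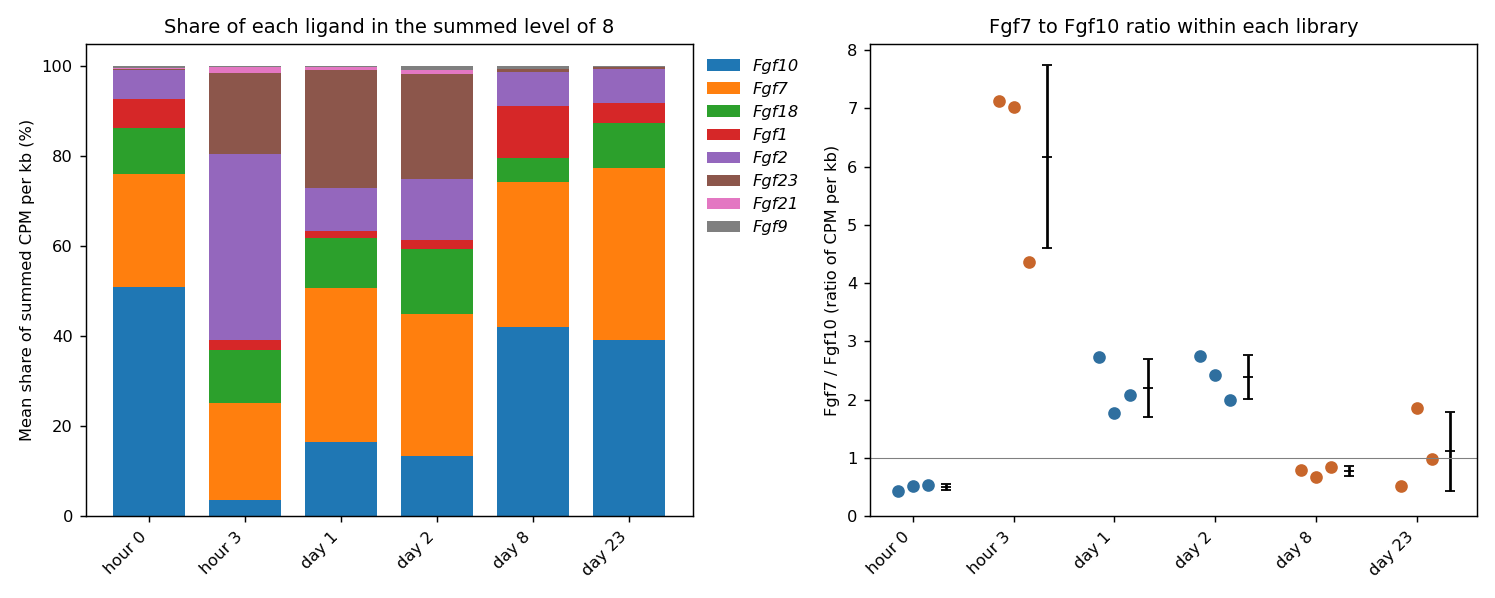
Left, mean share (%) of each ligand in the summed CPM per kb of the 8 ligand genes, for 3 libraries per group in time order. Right, ratio of Fgf7 to Fgf10 (CPM per kb) in each library, with the mean and SD of each group in black and the grey line at equal levels. Fgf10 is the main ligand at hour 0 and Fgf2 at hour 3, and the ratio is above 1 in every library of hour 3, day 1 and day 2.

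Fgf1, a ligand that can bind all FGF receptors, had its lowest levels at day 1 and day 2. It stood at 25.2, 22.8 and 26.0 CPM at hour 0 and at 29.3, 23.3 and 34.2 CPM at hour 3. Day 1 had 2.90, 5.31 and 3.81 CPM and day 2 had 3.31, 7.75 and 8.45 CPM. Day 8 had 26.8, 32.2 and 28.8 CPM and day 23 had 12.8, 24.5 and 19.9 CPM. All 6 libraries of day 1 and day 2 were below the other 12 on this scale. With library totals, day 2 replicates 17 and 18, at 12.2 and 12.8, were above day 23 replicate 7, at 12.0, and replicate 18 was also above hour 3 replicate 5, at 12.7. Within the set, the fitted log2 fold change against hour 0 was -2.62 ± 0.302 at day 1 and -1.90 ± 0.296 at day 2. Expected background was 12.0 of 148 counts at day 1 and 27.0 of 168 counts at day 2. For hour 3 against hour 0, where the groups overlapped, the value was 0.23 ± 0.275, and it was -0.94 with library totals.

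Markers of other cells also differed between the groups. The summed level of 7 mural (pericyte and smooth muscle) markers was 118 to 135 CPM at day 1 and 145 to 215 CPM at day 2, against 932 to 1439 CPM at hour 0. For 10 epithelial markers the sum was 246 to 303 CPM at day 1 and 128 to 223 CPM at day 2, against 398 to 653 CPM at hour 0. For 6 glial markers it was 12.2 to 15.6 CPM at day 1 and 130 to 182 CPM at day 2, against 97.7 to 110 CPM at hour 0. The 9 fibroblast markers summed to 11069 to 15064 CPM at day 1 and 14869 to 22762 CPM at day 2, against 24495 to 28940 CPM at hour 0. No marker of these 4 lists was at 0 in any group. At day 1 against hour 0, 2 mural, 1 epithelial, 0 glial and 1 fibroblast markers rose, and 5, 4, 6 and 7 fell (edgeR, Benjamini-Hochberg). At day 2, in the same order, 0, 0, 1 and 1 rose, and 3, 6, 0 and 4 fell. Of all genes tested 22.5% passed at day 1 and 14.8% at day 2.

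These sums moved in the other set too. The epithelial sum was 875 to 1203 CPM at hour 3, then 2779 to 3311 CPM for day 8 and 777 to 1388 CPM for day 23. The mural sum was 1765 to 2057 CPM at hour 3, then 939 to 1142 CPM for day 8 and 389 to 812 CPM for day 23. A sum follows its most abundant genes. At hour 3 against hour 0 the mural sum was higher, yet 1 of its 7 markers rose and 3 fell, where 60% of all genes tested passed. For the 7 macrophage markers it was 26.9 to 42.4 CPM at hour 3, 135 to 159 CPM at day 8 and 50.7 to 82.1 CPM at day 23, against 18.9 to 30.9 CPM at hour 0. The fibroblast sum was 43076 to 43951 CPM at hour 3, 25862 to 29445 CPM at day 8 and 22856 to 36835 CPM at day 23. For day 8 against hour 3, 9 of 10 epithelial, 5 of 7 mural, 5 of 7 macrophage and 6 of 7 tested blood endothelial markers rose (edgeR, Benjamini-Hochberg). All 6 T cell markers rose too, while 1 mural marker and 7 of 9 fibroblast markers fell. The mural sum was lower at day 8 although most of its markers rose. Of all genes tested 30.7% passed, with 4550 up and 3891 down. These marker counts are given for the TMM scaling only. The endothelial marker Cldn5 was at 0 in every group but day 2 and day 8, and the T cell markers Cd3e and Cd3d at hour 3. The part of these cells in the levels of the ligands and pathway genes was not tested.

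Fgf9, a paracrine ligand known mainly from epithelia and mesothelium, had few counts, and at hour 0, day 1 and day 2 they were close to background. It had 11, 7 and 13 counts at hour 0, 5, 6 and 2 at hour 3, and 1, 10 and 0 at day 1. Day 2 had 10, 15 and 26 counts, day 8 had 5, 11 and 29, and day 23 had 0, 3 and 0. The 93 counts at hour 0, day 1 and day 2 were 1.90 times the expected background. In the set with low background it had 61 counts, 38.3 times the expected number. Its 45 counts at day 8 stood against 0.430 expected, and 29 of them came from replicate 3. At day 23 there were 3 counts, a ratio of scaled counts to day 8 of 0.117 (exact 95% interval 0.0232 to 0.363, counting error only).

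Libraries of a group differed in a way several ligands shared. Among the day 1 libraries, replicate 14 was lowest for Fgf23 and Fgf18 and highest for Fgf1, Fgf7 and Fgf10. Its receptor-gene rate, 1.09 per kb per 10000000 counts, was also the highest of the 3, beside 0.690 and 0.532. At day 23, replicate 7 was highest for Fgf2, Fgf10, Fgf18 and Fgf23 and lowest for Fgf1. Leaving out each library in turn kept the log2 fold change of Fgf23 at day 1 against hour 0 between 5.07 and 6.15, and that of Fgf10 between -2.59 and -2.0.

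The other 14 FGF family genes were read against the same background, which uses 1 rate per kb for all genes and so ignores base composition. The 10 other secreted ligands, Fgf3, Fgf4, Fgf5, Fgf6, Fgf8, Fgf15, Fgf16, Fgf17, Fgf20 and Fgf22, held 951 counts over the libraries of hour 0, day 1 and day 2, between 1.77 and 5.39 times the expected number each. Over the libraries of hour 3, day 8 and day 23 they held 33 counts, and 8 of the 10 had 3 counts or fewer. The ratios for Fgf9 (1.90) and Fgf21 (3.09) at hour 0, day 1 and day 2 lie in this range, whereas those of Fgf1 (18.9), Fgf2 (48.6), Fgf18 (60.2), Fgf23 (79.1), Fgf10 (151) and Fgf7 (153) lie above it. The receptor genes have a median GC content of 39.0%, against 56.2% in Fgf18, 54.5% in Fgf21 and 54.7% in Fgf23. Of the 4 intracellular homologous factors, Fgf11 to Fgf14, Fgf11 was highest, with 141 counts over hour 3, day 8 and day 23 and 381 over hour 0, day 1 and day 2.

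**Figure D3:**
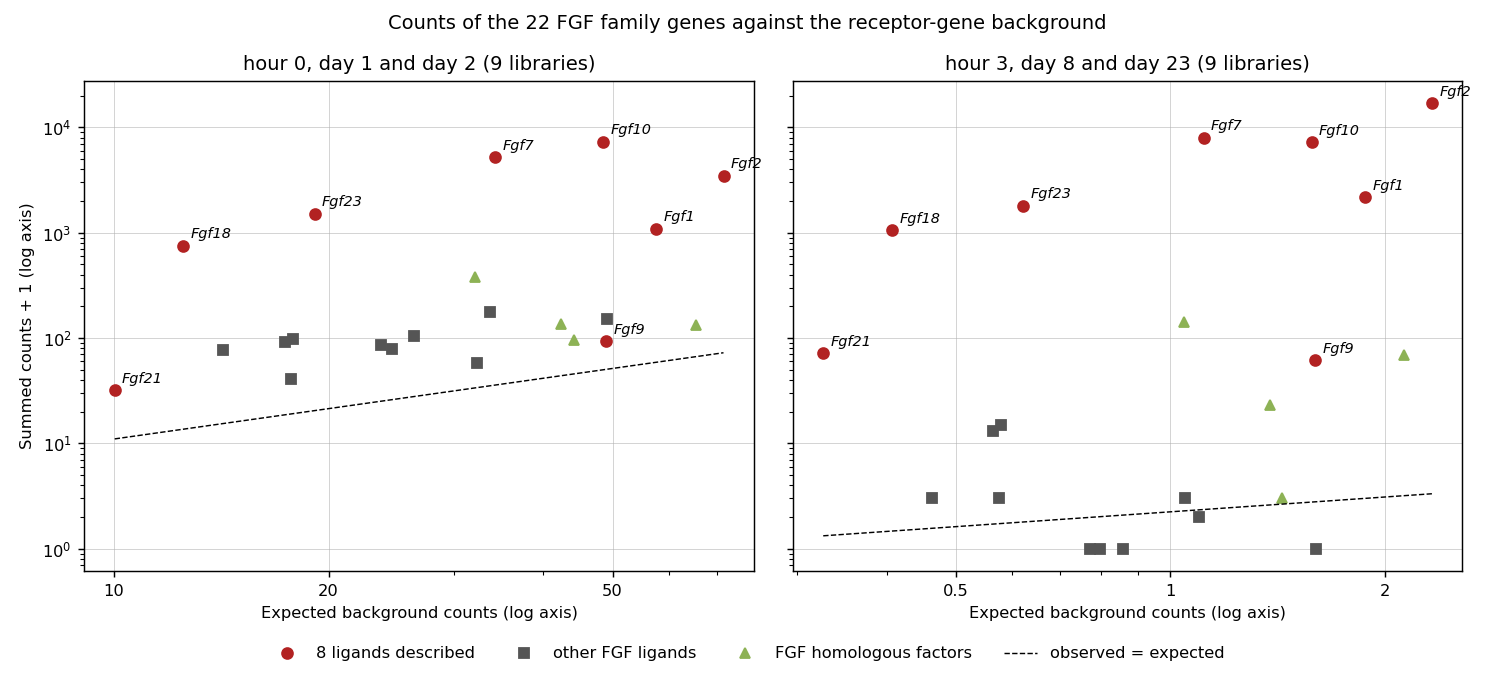
Summed counts plus 1 of the 22 FGF family genes over 9 libraries (vertical, log axis) against the counts expected from the receptor-gene rate per kb of exon (horizontal, log axis), for each set of libraries. At hour 0, day 1 and day 2 Fgf9 and Fgf21 lie among the other family genes, and the other 6 ligands described lie above them.

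The receptors and other pathway genes did not serve to choose the ligands and were tested, although their lists too were drawn up with earlier results of these data known. Of 5 receptor genes, Fgfr1 rose and Fgfr2 and Fgfr3 fell at hour 3, Fgfr2 and Fgfrl1 fell at day 1, and Fgfr1, Fgfr2 and Fgfrl1 fell at day 2, each against hour 0. These were 60%, 40% and 60% of the list, beside 60%, 22.5% and 14.8% of all genes tested, so that the count at hour 3 equals the background. With library totals 1 rose and 4 fell at hour 3, none rose and 1 fell at day 1, and none rose and 2 fell at day 2. Fgfr1, the main FGF receptor of fibroblasts, held 2414, 1915 and 2124 CPM at hour 3, against 424, 393 and 394 CPM at hour 0. It rose by a log2 fold change of 2.41 ± 0.184 (adjusted p = 9.87e-12, edgeR with Benjamini-Hochberg adjustment), and by 1.23 with library totals. Within the set it fell at day 8 against hour 3, with a log2 fold change of -3.19 ± 0.190 (edgeR adjusted p = 8.91e-14), or -2.40 with library totals. At day 2 it averaged 248 ± 2.64 CPM, against 404 ± 17.8 CPM at hour 0 (SD, n = 3 each), a change of -0.70 (edgeR adjusted p = 0.00485). With library totals that value was -0.34 and did not pass (edgeR adjusted p = 0.293). With DESeq2 size factors it was -0.50 and did not pass either (edgeR adjusted p = 0.0633).

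Fgfr2, the receptor of Fgf7 and Fgf10 in its epithelial form and of Fgf1 in all forms, held 4.03, 3.66 and 2.92 CPM at day 1, against 33.9, 47.8 and 47.4 CPM at hour 0. Gene-level counts do not separate its splice forms. The fall at day 1 had a log2 fold change of -3.60 ± 0.380 (edgeR adjusted p = 1.24e-08), and day 2 against hour 0 gave -1.97 ± 0.349 (edgeR adjusted p = 0.000101). It rose at day 8 against hour 3, by 1.45 ± 0.335 (edgeR adjusted p = 0.000952), or 2.20 with library totals, beside the higher epithelial sum of day 8. Fgfr2 thus fell at day 1 and day 2, at which times Fgf1 and Fgf10 were low, and beside the lower epithelial and mural marker sums given above. At hour 3 against hour 0, across the sets, Fgfr2 gave -0.85 (edgeR adjusted p = 0.0313) and did not pass without replicate 4, 6, 11 or 12 (edgeR adjusted p = 0.0508 to 0.117). With library totals it was -2.02 (edgeR adjusted p = 3.98e-06). The decoy receptor Fgfrl1 averaged 9.70 ± 0.969 CPM at day 2, against 30.3 ± 3.12 CPM at hour 0 (SD, n = 3 each), and fell by 1.64 on the log2 scale (edgeR adjusted p = 2.60e-06). Its change at day 1, -0.63 (edgeR adjusted p = 0.0326), did not pass with library totals (edgeR adjusted p = 0.0902) or in the fit of only the set of 9 libraries (edgeR adjusted p = 0.105). The same change did not pass in the fit of only the 2 groups (edgeR adjusted p = 0.0966) or without the low-count filter (edgeR adjusted p = 0.250). Nor did it pass when replicate 2, 10, 12, 14 or 15 was left out (edgeR adjusted p = 0.0686 to 0.140). Fgfr3 held at most 10.9 CPM in any library. Fgfr4 was scarce, with 6 counts over the 9 libraries of hour 3, day 8 and day 23. Over hour 0, day 1 and day 2 it had 145 counts, 3.88 times the expected background. Of these, 80 fell at day 1, at 2.58, 3.83 and 0.299 CPM.

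The co-receptors of the endocrine ligands were scarce in all groups. Of 8 co-receptor and binding protein genes, 1 rose and 4 fell at hour 3 against hour 0, and none rose and 3 fell at day 1. These were 62.5% and 37.5% of the list, beside 60% and 22.5% of all genes tested, so that the count at hour 3 is near the background. With library totals 1 rose and 7 fell at hour 3, and none rose and 3 fell at day 1. Klb, needed for Fgf21, had 4 counts over the 3 hour 3 libraries, and its 107 counts over the set of hour 0, day 1 and day 2 were 2.23 times the expected background. Kl, the co-receptor of Fgf23, averaged 4.71 CPM at hour 0, 2.43 CPM at hour 3, 1.61 CPM for day 1 and 3.16 CPM for day 2. Its 283 counts over the set of hour 0, day 1 and day 2 were 2.88 times the expected background. Both ratios lie inside the range of the other FGF ligands, so neither gene could be told apart from those ligands there. Over hour 3, day 8 and day 23 Kl had 118 counts, 36.9 times the expected background, and 56 of them fell at hour 3. Klb had 7 counts over the same libraries, 4.49 times the expected background. Flrt2, a membrane protein that binds FGF receptors, rose at hour 3, with 307 ± 38.6 CPM against 82.7 ± 15.1 CPM at hour 0 (SD, n = 3 each) and a log2 fold change of 1.89 (edgeR adjusted p = 8.94e-09), or 0.71 with library totals.

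Among genes for heparan sulfate, the cofactor of paracrine ligands, Sdc4, Sulf1 and Ext1 rose at hour 3 under both scalings, whereas the count of genes up and down depended on the scaling. Of 11 core protein genes tested, 8 rose and 1 fell at hour 3 against hour 0, and of 15 enzyme genes 10 rose and 1 fell, with median log2 fold changes of 0.80 and 1.03 beside -1.41 for all genes tested. The genes called were 81.8% and 73.3% of these lists, beside 60% of all genes tested. With library totals 1 core protein gene rose and 4 fell, and 4 enzyme genes rose and 5 fell, with medians of -0.37 and -0.14 beside -2.54. All genes tested include genes with few counts, and the receptor-gene rate was 1.34 at hour 0 and 0.0465 at hour 3. The part of background in the all-gene medians was not tested. Sdc4, a syndecan that carries FGF2 at the cell surface, averaged 2997 ± 141 CPM at hour 3, against 102 ± 16.2 CPM at hour 0 (SD, n = 3 each), a log2 fold change of 4.88 (edgeR adjusted p = 7.95e-14) or 3.70 with library totals. Sulf1, which removes sulfate groups that FGF2 signalling needs, rose by 2.76 (edgeR adjusted p = 1.16e-12), or 1.58 with library totals. Ext1, which builds the chains, rose by 2.50 (edgeR adjusted p = 8.12e-12), or 1.32 with library totals. Day 8 against hour 3, within the set, gave -3.38 for Sdc4, -3.27 for Sulf1 and -2.18 for Ext1 (edgeR adjusted p = 4.90e-11, 8.56e-14 and 1.42e-10). With library totals these were -2.60, -2.50 and -1.40.

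At day 1 against hour 0, 4 core protein genes rose and 5 fell, or 4 and 4 with library totals, with a median of -0.53 beside -0.41 for all genes tested. Those called were 81.8% of the list, beside 22.5% of all genes tested, 88.9% of fibroblast markers and 0% of macrophage markers. Sdc3 rose to 540 ± 118 CPM at day 1, against 61.6 ± 6.34 CPM at hour 0 (SD, n = 3 each), a log2 fold change of 3.13 (edgeR adjusted p = 1.69e-12). The glypicans Gpc6 and Gpc3 fell, with log2 fold changes of -4.67 and -3.13 (edgeR adjusted p = 8.20e-14 and 3.63e-09). Gpc3 stayed low at day 2, with -3.27 against hour 0 (edgeR adjusted p = 5.85e-09). Of the 9 signal adaptor genes, 2 rose and 2 fell at day 1, and none rose and 2 fell at day 2, against hour 0. These were 44.4% and 22.2% of the list, beside 22.5% and 14.8% of all genes tested. With library totals 2 rose and 2 fell at day 1, and none rose and 1 fell at day 2. At hour 3 against hour 0, 5 adaptor genes rose and 3 fell, or 2 and 7 with library totals. For day 8 against hour 3, 4 rose and 4 fell, or 4 and 2 with library totals. The adaptor genes called were 88.9% of the list in both comparisons, beside 60% and 30.7% of all genes tested.

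Genes known as feedback targets of FGF receptor signalling fell more often than they rose at day 1 and day 2, under both scalings. Of 11 tested, 2 rose and 8 fell at day 1 against hour 0, with a median log2 fold change of -0.91 beside -0.41 for all genes, and 1 rose and 7 fell at day 2, with a median of -1.01 beside 0.29. The all-gene medians include genes with few counts, and the receptor-gene rate differed between these groups. It was 3.06 for day 2 and 0.772 for day 1, beside 1.34 in uninfected cells. How far background moved the all-gene medians was not tested. The feedback genes called were 90.9% and 72.7% of the list, beside 22.5% and 14.8% of all genes tested. High shares were not particular to this list. At day 1 other lists ranged from 0% of macrophage markers to 100% of mural and glial markers, with 88.9% of fibroblast markers. At day 2 they ranged from 0% of macrophage markers to 81.8% of heparan sulfate core protein genes. All genes tested also fell more often than they rose, with 2662 up and 3531 down at day 1 and 1409 up and 2652 down at day 2. With library totals 2 of the list rose and 8 fell at day 1, and 1 rose and 5 fell at day 2, beside 3005 genes up and 3067 down at day 1 and 2557 up and 1277 down at day 2. Spry1, a Sprouty inhibitor, held 23.8, 27.7 and 29.7 CPM at day 1 and 48.5, 62.3 and 45.5 CPM at day 2, against 257, 258 and 259 CPM at hour 0. It fell by 3.25 ± 0.184 and by 2.31 ± 0.177 on the log2 scale (edgeR adjusted p = 6.46e-14 and 6.86e-11). Spry4 fell by 2.47 at day 1 and by 2.39 at day 2 (edgeR adjusted p = 4.04e-11 and 1.83e-10). The ETS factor gene Etv1 fell by 3.23 at day 1 (edgeR adjusted p = 5.69e-09) and Etv5 by 0.91 (edgeR adjusted p = 0.00323). Dusp6, the ERK phosphatase, fell by 0.80 at day 1 (edgeR adjusted p = 0.00105). Spred3 and Etv4 rose at day 1, by 1.86 and 1.74 (edgeR adjusted p = 1.53e-05 and 0.00179).

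At hour 3 the list divided, with 3 genes up and 5 down against hour 0, or 2 up and 8 down with library totals. Those called were 72.7% of the list, beside 60% of all genes tested. Spred1, an inhibitor of the RAS-ERK pathway, averaged 1404 ± 148 CPM at hour 3, against 172 ± 27.5 CPM at hour 0 (SD, n = 3 each), a log2 fold change of 3.03 (edgeR adjusted p = 2.66e-13) or 1.86 with library totals. Spry2 rose by 1.87 (edgeR adjusted p = 2.21e-07), or 0.68 with library totals. Spry1 had 1.06 (edgeR adjusted p = 8.57e-06) and turned to -0.12 with library totals. Il17rd, another inhibitor, fell by 1.99 (edgeR adjusted p = 4.76e-07), and its value with library totals was -3.17. Within the set, day 8 against hour 3, 5 of the 11 rose and 4 fell, or 7 and 3 with library totals, and those called were 81.8% of the list, beside 30.7% of all genes tested. Etv1 rose by 2.34 and Dusp6 by 1.24 (edgeR adjusted p = 2.71e-07 and 2.07e-06), while Spred1 fell by 3.05 (edgeR adjusted p = 3.38e-13). With library totals these were 3.10, 2.01 and -2.27. Day 23 against day 8 gave falls of Dusp6 by 1.08 and of Etv1 by 1.09 (edgeR adjusted p = 0.000405 and 0.0214) and no rise. Etv1 did not pass without replicate 2 or 7 (edgeR adjusted p = 0.138 and 0.0814) or in the fit of only the 2 groups (edgeR adjusted p = 0.0677).

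**Figure D4:**
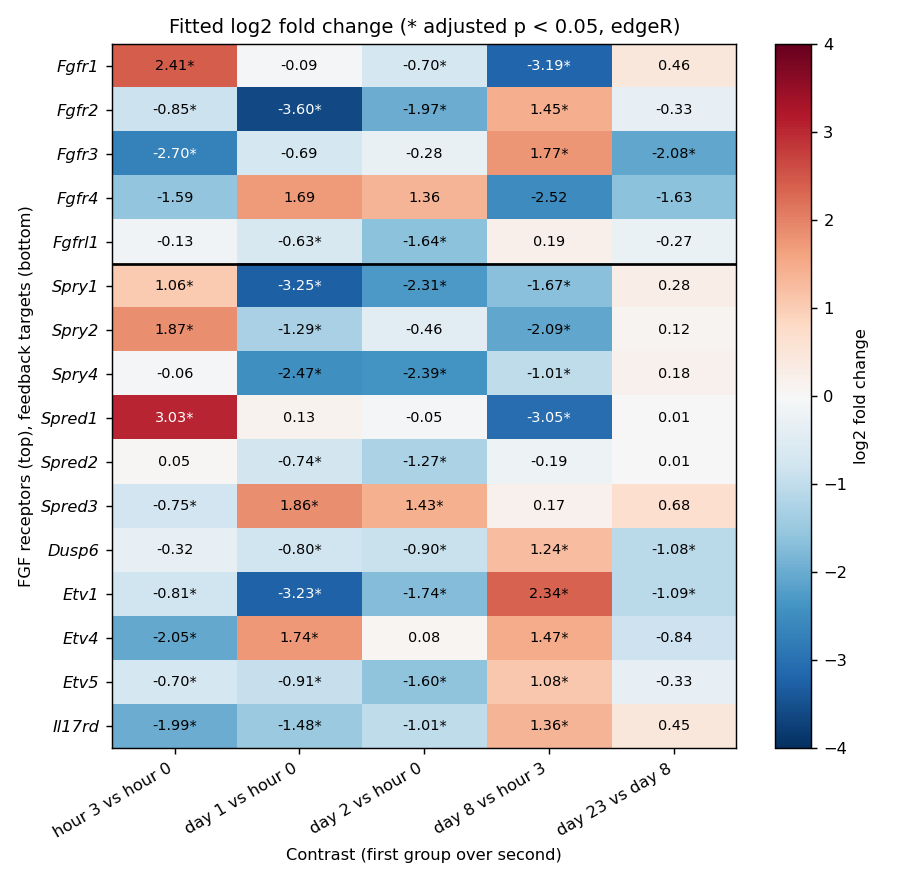
Fitted log2 fold change of 5 FGF receptor genes and 11 feedback target genes (rows) in 5 contrasts (columns, first named group over the other), from edgeR, with an asterisk at an adjusted p under 0.05. Red is higher and blue lower. Fgfr2, Spry1, Spry4 and Etv1 fell at day 1 and day 2, and Fgfr1 and Spred1 rose at hour 3 and fell at day 8 against hour 3.

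Genes with the most similar pattern were listed for the 6 ligands with a mean of at least 5 CPM in their highest group, by Pearson r of log2 CPM over 18 libraries among 10454 protein-coding genes. The libraries share 2 sets and their scaling, so r is a description. For Fgf2 they were Dst (r = 0.980), Kctd10, Adarb1, Gja1 and Tnfaip6. For Fgf23 they were Mcoln2 (r = 0.972), Acod1, Procr, Cxcl5 and Rdh10. Fgf10 was closest to Dennd4c (r = 0.946), Ablim1, Snrk, Fmo5 and P2ry1, and Fgf1 to Prom2 (r = 0.953), Ube2q2, Nedd4, Man1a2 and Kdelc2. Fgf18 was closest to Lmx1a (r = 0.923), Arhgef40, Lrrk2, Medag and Numbl. Fgf7 had the weakest likeness, with Cyp51 (r = 0.903), Zeb1, Stk3, Gjc1 and Rab12.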

How the data were processed

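The authors deposited unnormalised read counts by Ensembl gene ID for 18 libraries, 3 in each of 6 groups. Per the submitters' processing notes, the authors used FastQC, STAR with mm10, Subread and DESeq2. Versions, annotation release, strand setting and the handling of reads with several matches are not given in the sources used here. Of 55401 gene IDs, 55141 were named from GENCODE M21 on GRCm38. Counts were fitted over all libraries with edgeR 4.0.16 (quasi-likelihood F test, R 4.3.3) after filterByExpr (minimum count 10, minimum total 15) and TMM scaling, which left 27525 genes, all 8 ligands included. P-values were adjusted by Benjamini-Hochberg over all genes tested, with a threshold of 0.05, and measure the spread between libraries labelled as separate subjects. CPM values are TMM-scaled, and levels are compared between genes per kb of exon.

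Expected background is the rate per kb on 1502 receptor genes times exon length, per library. Ratios and floors of counts cover counting error only. Promoter windows came from RefSeq (GRCm38.p6). Members and gene lists were chosen with earlier results of these data known. Pathway genes are named from lists of receptors, co-receptors and feedback targets, and otherwise up to 4 per list and contrast with an adjusted p under 0.05, the largest change and at least 10 CPM in the higher group. Alternatives were DESeq2 size factors or library totals for scaling, other low-count filters (none, or 5 CPM in 3 libraries), DESeq2 1.42.0, fits of fewer groups, background subtraction and leaving out each replicate. The edgeR step was tested on counts simulated from a single mean profile with few genes changed. Those counts held no difference in background between sets, so that test cannot check the scaling between these groups.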

Additional observations from a re-analysis of the deposited data

How the results depend on the processing

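Of 356 alternative counts of genes passing the threshold, 332 stayed within 1.5 times the reported count. The filter of 5 CPM in 3 libraries gave 9329 genes for hour 3, 4851 for day 8 and 3312 for day 23 over hour 0, where 16503, 12076 and 9348 were reported, since it tests fewer genes. Fitting only the 2 groups compared gave 7182 at day 8 and 1997 at day 23 against hour 0, and 708 at day 23 against day 8, where 1465 were reported. Without day 2 the counts against hour 0 were 6783 at day 8 and 5123 at day 23. Leaving out 1 replicate each gave 7204 to 14126 genes at day 8 and 4061 to 10426 at day 23 against hour 0, and 593 to 1777 at day 23 against day 8, with the lowest counts without replicate 3, 8 and 2. Among 59 FGF pathway genes, 30 passed at day 8 against hour 0 and 16 to 31 without 1 replicate each, with the lowest counts without replicates 1 and 2. At day 23 against hour 0, 20 passed, 32 with library totals, 13 under the filter of 5 CPM, 5 in the fit of only the 2 groups and 12 to 20 without 1 replicate each, the lowest without replicate 8. At day 23 against day 8, 9 passed, 3 in the fit of only the 2 groups and 3 to 11 without 1 replicate each, the lowest without replicates 2 and 3. Of 1253 alternative values of named pathway genes, 20 kept their direction and no longer passed, and 1 reversed, Spry1 at hour 3 against hour 0, at -0.12 with library totals. The cause was not tested. Of 1447 alternative ligand fold changes, 1362 moved by less than the spread between replicates. Subtracting the background turned Fgf9 at hour 3 against hour 0 to 0.20, beside a fitted -0.78. Over hour 0, day 1 and day 2 together the counts of Fgf9 and Fgf21 lay in the range of the other FGF ligands, which limits what the depth can show there. No paired analysis was possible because each replicate number occurs in a single group.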
